A study of Mus musculus with 32 samples.

Results

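Levels of 37 immediate early and heat shock genes, a set given by name, were followed across 32 microarrays of tumours grown from 4T1-Luc cells, a luciferase-marked mouse mammary carcinoma line. Of these 37 genes 36 had a named probe, out of 20145 named genes on the array, and Hspa1b had none. They fall into 8 AP-1 and ATF factors (Fos, Fosb, Fosl1, Jun, Junb, Jund, Atf3 and Maff), 6 EGR and NR4A factors (Egr1, Egr2, Egr3, Nr4a1, Nr4a2 and Nr4a3) and 4 KLF and MYC factors (Klf2, Klf4, Klf6 and Myc). A further 11 are regulators induced alongside them (Ier2, Ier3, Ier5, Dusp1, Dusp5, Zfp36, Btg2, Socs3, Nfkbia, Nfkbiz and Gadd45b), and 7 are heat shock proteins (Hspa1a, Hspa8, Hsp90aa1, Hspb1, Hsph1, Dnaja1 and Dnajb1). The Hspa1a probe may not be told apart from transcripts of Hspa1b, a near-identical copy.

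Immediate early genes are transcribed within minutes of a stimulus without new protein synthesis, through factors that are already present, such as serum response factor, ternary complex factors and CREB. Their products switch on later genes, while the dual-specificity phosphatases, Zfp36 and Nfkbia shut the same signals down again. Heat shock factor 1 drives the chaperone genes when proteins unfold. Enzymatic dissociation of tissue is itself a known inducer of both families, so their levels in digested tissue record handling as well as the state of the tumour.

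The arrays form 10 groups. At 1300 mm3 an EC fraction and the bulk tissue left after its removal were measured from the same 12 tumours: 4 of mice called sensitive to sunitinib up to day 8, 4 of mice called resistant and 4 of mice given vehicle. Bulk tissue of smaller tumours was measured at day 9 and at 600 mm3, from 2 sunitinib and 2 vehicle mice each, and the sunitinib mice of both stages carry the sensitive label too. Hosts were female Balb/C mice 8 weeks old with cells placed in the mammary fat pad, and sunitinib, an inhibitor of VEGF, PDGF and related receptor tyrosine kinases, was given at 40 mg/kg from 1 week later. The protocol text, worded identically for every sample, states digestion for 1 h at 37 °C with collagenase, DNase and actinomycin D, a drug that blocks transcription, and selection of EC with PECAM-1 beads. All tumours derive from 1 cell line, and each array is a separate animal or a separate fraction of one.

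Levels are given on the log2 scale relative to the 75th percentile of signal on the same array, so a level of 0 is as bright as that percentile. A change was called at an adjusted p under 0.05 (limma, Benjamini-Hochberg over all genes tested). The endothelial markers fitted the EC label: Pecam1 was higher in EC than in bulk by 2.89 and Cdh5 by 6.03 on the log2 scale, and 19 of 20 endothelial markers rose. The EC fraction was not pure by these lists, since 9 of 10 macrophage and 9 of 10 mural markers rose in it too, while 11 of 11 tumour epithelial markers fell. Between 47.4% and 54.0% of probes were well above background on the resistant EC arrays, against 80.4% to 86.7% on the sensitive and 80.8% to 82.7% on the vehicle EC arrays. The 4 slides follow the groups: 1 holds sensitive and vehicle EC, 1 all resistant arrays of both fractions, 1 sensitive and vehicle bulk at 1300 mm3, and 1 the 8 smaller tumours. Bulk tissue at 1300 mm3 is what was left after EC removal, while no EC fraction was measured from the smaller tumours. Tumour size, EC removal, resistance and slide therefore cannot be told apart where they coincide.

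A single array stands apart within its group, and it bears on every comparison with vehicle bulk tissue at 1300 mm3. On the bulk array of vehicle mouse 3 the median level of the 36 genes was 1.57, against 4.63 to 5.07 on the other 3 vehicle bulk arrays. That array was the lowest of the 12 bulk arrays at 1300 mm3 for 31 of 36 genes, a position it held for 8.93% of all genes. It lay within the range of the 8 smaller tumours for 31 of 36 genes, as it did for 67.1% of all genes. Its mean endothelial marker level was 1.06, against -2.57 to -2.14 on the other 3, and its mean neutrophil marker level 0.37, against 2.11 to 4.61. A lesser departure was seen on the bulk array of resistant mouse 2, with a median of 4.13 against 5.05 to 5.29 on the other 3. On that array 83.7% of probes were well above background, against 56.4% to 59.8% on the other resistant bulk arrays, 70.7% to 82.8% on the sensitive and 66.5% to 71.0% on the vehicle bulk arrays at 1300 mm3. Counts that rest on these arrays are mostly given with and without them, and values of single genes mostly with all arrays.

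Promoter sequence is shown for 4 of the feedback genes that rose with tumour size, because their windows carry the sites through which CREB and serum response factor are known to act. Each run is the 180 bases before the RefSeq transcription start on GRCm38.p6, 5′ to 3′ on the strand of the gene, with the match in capitals. Btg2 (chr1:134079156-134079335, minus strand) and Dusp1 (chr17:26508473-26508652, minus strand) hold the cyclic AMP response element TGACGTCA, from -166 to -159 and from -143 to -136. Zfp36 (chr7:28379229-28379408, minus strand) holds 1 CArG box, CC, 6 letters A or T and GG, from -58 to -49, and Dusp5 (chr19:53528965-53529144, plus strand) holds 2 side by side, from -82 to -73 and from -72 to -63.
Btg2: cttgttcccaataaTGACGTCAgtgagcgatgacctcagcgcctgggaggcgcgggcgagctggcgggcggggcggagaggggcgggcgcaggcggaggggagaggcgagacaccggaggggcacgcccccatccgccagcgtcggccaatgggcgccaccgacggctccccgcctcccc
Dusp1: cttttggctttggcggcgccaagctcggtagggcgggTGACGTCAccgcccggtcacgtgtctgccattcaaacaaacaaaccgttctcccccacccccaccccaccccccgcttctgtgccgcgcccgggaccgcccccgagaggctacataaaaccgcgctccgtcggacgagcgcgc
Zfp36: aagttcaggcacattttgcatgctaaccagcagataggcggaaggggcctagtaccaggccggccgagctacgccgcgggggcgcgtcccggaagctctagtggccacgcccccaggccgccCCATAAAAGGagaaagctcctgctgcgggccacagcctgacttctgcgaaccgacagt
Dusp5: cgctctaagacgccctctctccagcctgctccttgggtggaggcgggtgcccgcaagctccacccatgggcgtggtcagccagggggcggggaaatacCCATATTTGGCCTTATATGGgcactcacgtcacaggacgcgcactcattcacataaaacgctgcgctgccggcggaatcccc
Of the 37 genes 29 had a promoter window of 250 bases before to 50 after the start. The cyclic AMP response element occurred in 3 of the 29 (Btg2, Dusp1 and Maff), against 2.03% of all genes with a window, and the CArG box in 3 (Zfp36, Egr2 and Dusp5), against 1.81%. The heat shock element, GAA, NN, TTC, NN and GAA in a row on either strand, occurred in 1 (Hsph1, after the start) and in 0.662% of all genes. The AP-1 site TGAGTCA, on either strand, occurred in 0 of the 29 and in 5.95% of all genes. The letters of these motifs do not overlap one another, and a match describes sequence, not binding.

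The genes were set against tumour size over all arrays first. Leaving out the bulk array of vehicle mouse 3, the median level of the 36 genes was 4.13 to 5.70 on the 23 arrays at 1300 mm3, EC and bulk, against 0.87 to 2.06 on the 8 smaller tumours. All 23 lay above all 8 for 24 of the 36 genes, a separation seen for 0.896% of all genes. With that array included the separation was complete for 3 of 36, against 0.201% of all genes. By their medians the AP-1, EGR and NR4A, KLF and MYC and feedback groups each separated the 23 arrays from the 8. So did the heat shock group by a narrow gap, with medians of 5.24 to 6.87 against 4.32 to 5.10. Gene by gene, Hspa1a was the only heat shock gene that separated them.

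**Figure D1:**
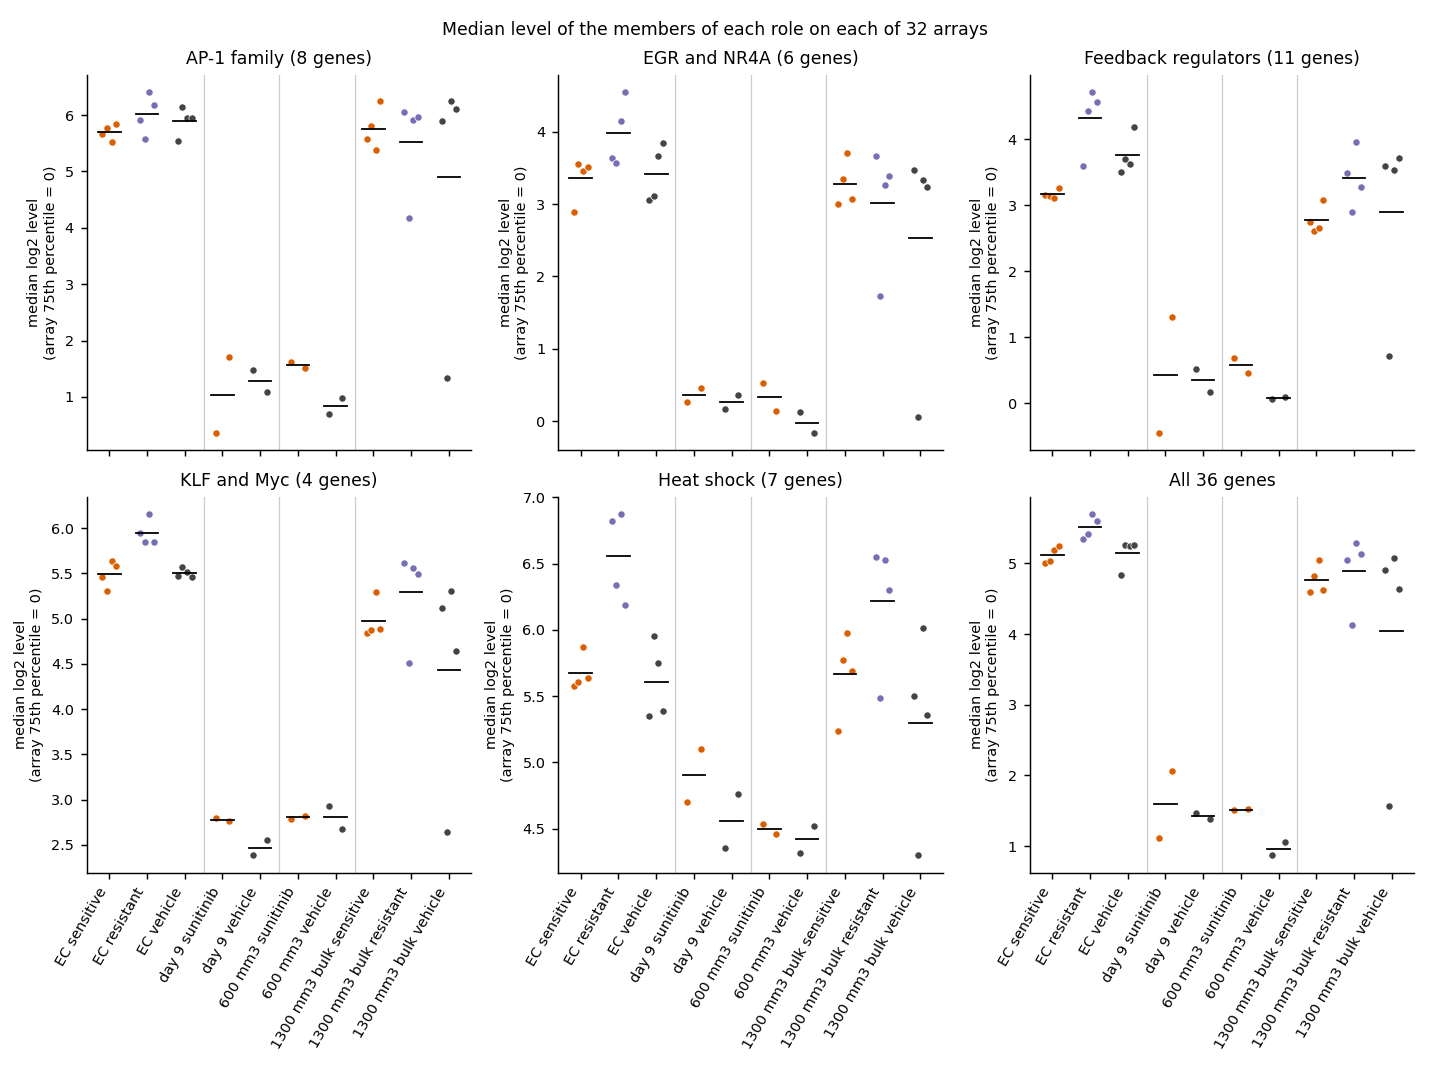
Median level (log2, relative to the 75th percentile of signal on the same array, y axis) of all 36 genes and of each of the 5 role groups, with 1 dot per array, the 10 groups along the x axis and bars at the group means. The median of all 36 genes lies between 4.13 and 5.70 at 1300 mm3 except for the bulk array of vehicle mouse 3 at 1.57, and between 0.87 and 2.06 in the smaller tumours.

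Vehicle bulk tissue at 1300 mm3 was tested against the vehicle tumours of day 9 and 600 mm3 to ask how the genes stand across tumour sizes without drug. EC removal and slide coincide with tumour size here and cannot be told apart from it. Of 36 genes 24 rose and 0 fell, where 4.38% of 18441 genes rose and 4.7% fell. Their median difference was 2.41, against 0.04 over all genes. All 4 larger tumours lay above all 4 smaller ones for 13 of 36 genes, as for 15.9% of all genes, and the 3 without mouse 3 did so for 31 of 36, as for 22.7%. Called higher were 6 of 8 AP-1 and ATF factors, 4 of 6 EGR and NR4A factors, 3 of 4 KLF and MYC factors, 10 of 11 feedback regulators and 1 of 7 heat shock proteins. Without the bulk arrays of vehicle mouse 3 and resistant mouse 2, the second of which enters through the shared estimate of spread, 34 of 36 were called higher, where 21.7% of all genes were, and 5 of 7 heat shock proteins were among them. That fit also called 8 of 8 AP-1 and ATF factors and 6 of 6 EGR and NR4A factors higher. It called 4 of 4 KLF and MYC factors and 11 of 11 feedback regulators higher too. Fosl1, Maff, Egr2, Egr3, Socs3 and Myc, not called with all arrays, were thus among them. The gene values below come from all arrays unless stated otherwise. In bulk tissue fewer cells of a type and less RNA per cell cannot be told apart. In the next paragraphs values at 1300 mm3 are those of vehicle mice 2, 3, 4 and 5, and those of the smaller tumours are the 2 of day 9 and then the 2 of 600 mm3.

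Among the AP-1 factors, which bind DNA as pairs, Fosb had the largest measured difference, though that of Nr4a3 is only an approximate lower bound. Fosb stood at 6.15, -0.09, 6.52 and 6.27 at 1300 mm3, against -0.22, -0.28, -1.31 and -1.45 in the smaller tumours, a difference of 5.53 (SE 1.11, adjusted p = 0.0113). Fos, the founding member of the family, stood at 5.65, 1.74, 5.98 and 5.95, against 1.42, 0.99, 0.41 and 0.61, a difference of 3.97 (SE 0.76, adjusted p = 0.00978). For both genes all 4 larger tumours lay above the smaller ones, mouse 3 only just. Junb, a partner of the FOS proteins, stood at 4.70, 1.16, 4.68 and 4.56, against 0.82, 0.64, 0.37 and 0.73, and rose by 3.14 (SE 0.65, adjusted p = 0.0128). Atf3, a stress-induced repressor of the ATF family, stood at 6.48, 1.45, 6.74 and 6.63, against 1.92, 1.32, 0.98 and 1.32, and rose by 3.94 (SE 0.92, adjusted p = 0.0196). Junb separated the groups, while for Atf3 the value of mouse 3 fell among the smaller tumours. Jund, a JUN protein that many cells express without a stimulus, stood at 7.38, 5.00, 7.25 and 7.26, against 5.18, 5.35, 5.00 and 4.51, a rise of 1.71 (SE 0.45, adjusted p = 0.0319). Jun itself stood at 6.86, 4.92, 6.72 and 7.49, against 5.18, 4.50, 5.11 and 4.98, a rise of 1.55 (SE 0.43, adjusted p = 0.0381). Both were bright in the smaller tumours as well, and again mouse 3 overlapped them. Fosl1, a FOS protein without the transactivation domain, differed by 2.15 (adjusted p = 0.0839) and Maff, a small MAF protein, by 1.36 (adjusted p = 0.0608), short of the threshold with all arrays.

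The zinc finger factor Egr1 had the smallest p of all 36 genes. Egr1 stood at 5.36, 2.96, 5.66 and 5.62 at 1300 mm3, against 1.89, 1.67, 0.63 and 0.39 in the smaller tumours, and rose by 3.76 (SE 0.58, adjusted p = 0.00357). Nr4a1, an orphan nuclear receptor induced by many stimuli, stood at 7.13, 3.31, 7.30 and 7.12, against 2.64, 2.50, 1.70 and 1.54, and rose by 4.12 (SE 0.75, adjusted p = 0.00818). All 4 larger tumours exceeded all 4 smaller ones for both genes. Nr4a2, its close relative, stood at 4.90, -0.48, 4.36 and 4.30, against -0.63, -0.74, -0.39 and -0.71, and rose by 3.89 (SE 0.92, adjusted p = 0.021). Mouse 3 lay within the range of the smaller tumours for Nr4a2. Nr4a3 was dim, at -2.08, -7.14, -3.66 and -1.97, against -7.41, -8.38, -8.88 and -8.42, and the smaller tumours were not well above background. The rise of Nr4a3 was therefore about 6.75-fold or more, the bright mean set against the dimmest signal that each array could tell from background (adjusted p = 0.00921). Vehicle mouse 3, itself not well above background, entered the bright mean at its measured level, so this bound is approximate. Nr4a3 was not called with quantile scaling or in the authors' own normalised values (adjusted p = 0.0644 and 0.0678). With all arrays Egr2 differed by 0.87 (adjusted p = 0.135) and Egr3, dim throughout, by 1.22 (adjusted p = 0.338).

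**Figure D2:**
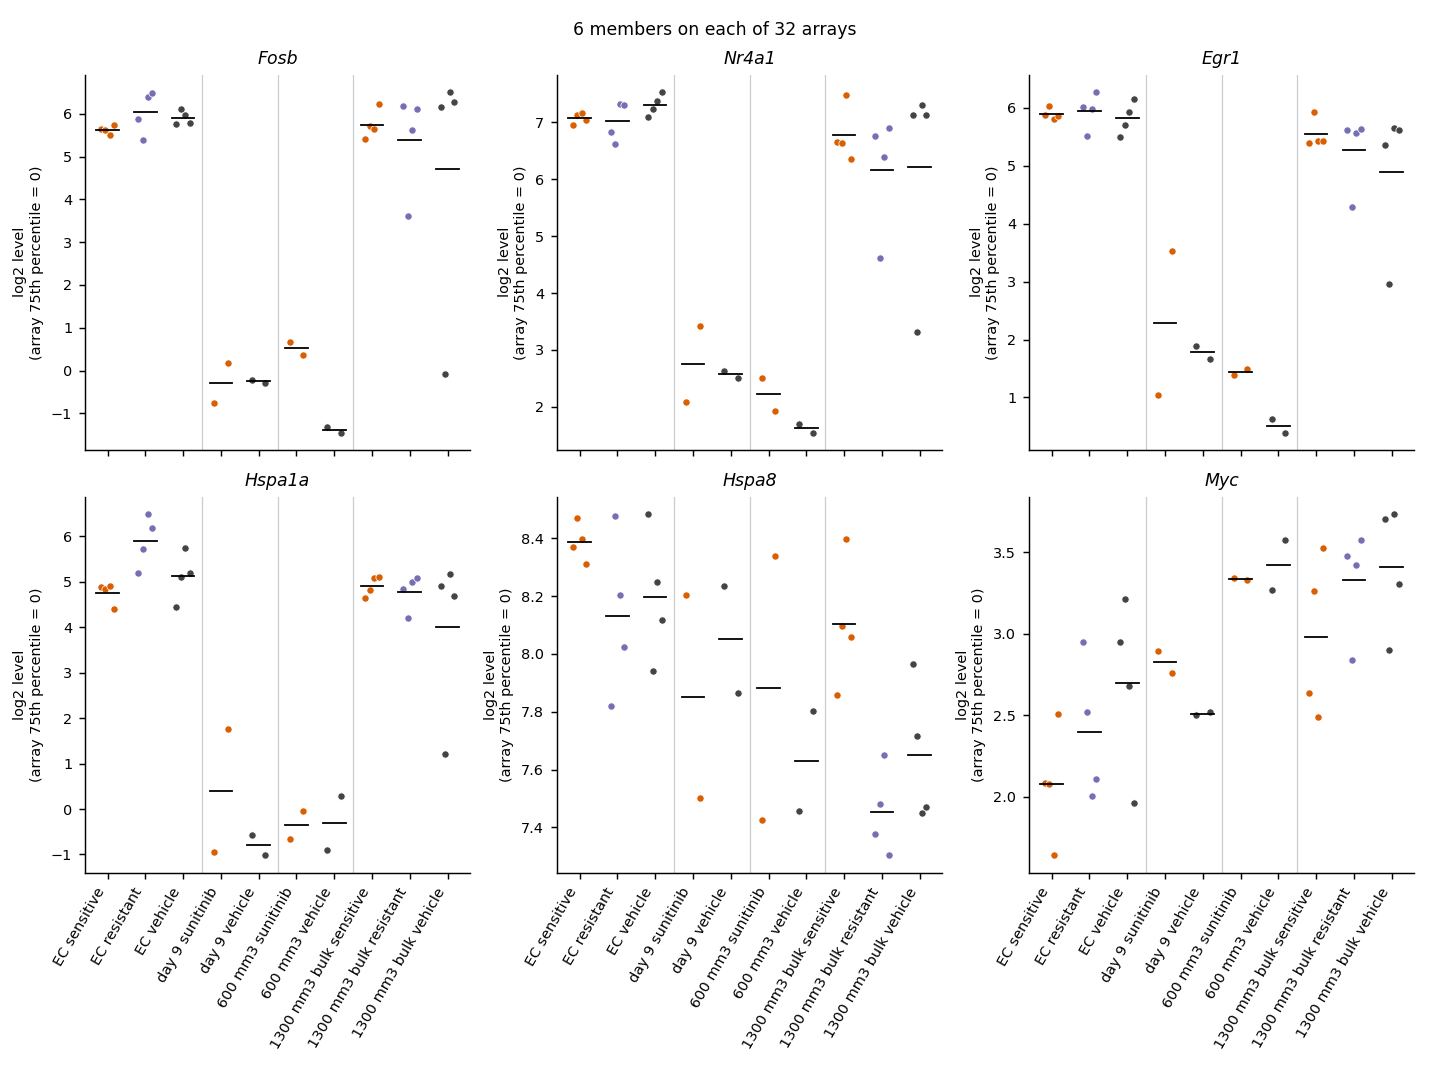
Level (log2, relative to the 75th percentile of signal on the same array, y axis) of Fosb, Nr4a1, Egr1, Hspa1a, Hspa8 and Myc on every array, with 1 dot per array, the 10 groups along the x axis and bars at the group means. Fosb, Nr4a1, Egr1 and Hspa1a are low in the 8 smaller tumours and high at 1300 mm3 except for the bulk array of vehicle mouse 3. The ranges of Myc and of the Hspa8 probe shown overlap across tumour sizes.

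The feedback regulators rose almost as a whole. Btg2, an antiproliferative gene induced by p53, stood at 3.59, 1.70, 3.54 and 3.71 at 1300 mm3, against 0.52, 0.18, -0.49 and -0.13 in the smaller tumours, a rise of 3.12 (SE 0.49, adjusted p = 0.0038). Dusp5, a nuclear phosphatase of ERK, stood at 0.41, -3.07, -0.26 and 0.01, against -3.51, -3.13, -4.38 and -3.98, a rise of 3.02 (SE 0.58, adjusted p = 0.0102). Nfkbiz, a nuclear inhibitor protein of the NF-kappaB family, stood at 3.09, 0.26, 3.02 and 3.14, against 0.14, -0.72, -0.25 and -0.53, a rise of 2.72 (SE 0.53, adjusted p = 0.0106). These 3 genes separated the groups, with mouse 3 lowest of the larger tumours. Nfkbia, the inhibitor that holds NF-kappaB in the cytoplasm, stood at 7.84, 4.85, 7.61 and 7.57, against 4.59, 4.58, 4.39 and 4.57, a rise of 2.44 (SE 0.50, adjusted p = 0.0128). Its values did not overlap either. Ier5 stood at 3.33, 0.19, 3.37 and 3.00, against -0.38, -0.61, -0.40 and 0.35, a rise of 2.74 (SE 0.57, adjusted p = 0.0134). Mouse 3 overlapped the smaller tumours for Ier5, and a second Ier5 probe differed by only 0.46.

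Among the other feedback genes, Ier2 stood at 2.60, 0.72, 3.04 and 2.98 at 1300 mm3, against -0.06, 0.10, 0.07 and 0.09 in the smaller tumours, a rise of 2.29 (SE 0.54, adjusted p = 0.0202) with no overlap. Dusp1, which inactivates p38 and JNK, stood at 4.78, 0.70, 5.10 and 5.03, against 1.44, 0.77, 0.11 and 0.03, a rise of 3.31 (SE 0.78, adjusted p = 0.0203). Gadd45b, a stress sensor upstream of p38 and JNK, stood at 4.72, 1.09, 3.90 and 4.59, against 1.19, 1.68, 0.77 and 1.02, a rise of 2.41 (SE 0.57, adjusted p = 0.021). For Dusp1 and Gadd45b mouse 3 lay inside the range of the smaller tumours. Ier3, an NF-kappaB target, stood at 5.97, 2.71, 6.47 and 5.70, against 3.81, 2.87, 2.23 and 2.29, a rise of 2.41 (SE 0.62, adjusted p = 0.0291). Zfp36, which destabilises AU-rich mRNAs, stood at 1.04, -2.45, 1.66 and 1.70, against -1.92, -1.78, -2.33 and -2.75, a rise of 2.68 (SE 0.74, adjusted p = 0.0381). Mouse 3 overlapped the smaller tumours for both. Socs3, the inhibitor of cytokine receptor signalling, was the feedback gene that was not called with all arrays, at 0.95 (adjusted p = 0.0842).

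Of the heat shock proteins Hspa1a was called with all arrays. Hspa1a, the stress-inducible HSP70, stood at 4.91, 1.22, 5.17 and 4.68 at 1300 mm3, against -0.58, -1.02, -0.91 and 0.29 in the smaller tumours, and rose by 4.55 (SE 0.73, adjusted p = 0.00492). Its groups did not overlap. Hspa8, the constitutive HSP70, stood at 7.96, 7.72, 7.45 and 7.47, against 8.24, 7.86, 7.46 and 7.80, a difference of -0.19 (SE 0.22, adjusted p = 0.604), and the groups overlapped. Other probes of Hspa8 had the opposite sign, at 0.74 and 0.28. Hsp90aa1, the inducible HSP90, differed by 0.04 (adjusted p = 0.927). Hspb1 differed by 0.41, Dnaja1 by 0.59, Dnajb1 by 0.99 and Hsph1 by 1.26, none of them called with all arrays. Without both of the arrays that stand apart these 4 were called, Hspb1 at 0.75, Dnaja1 at 0.73, Dnajb1 at 1.33 and Hsph1 at 1.53, while Hspa8 and Hsp90aa1 were not, at -0.21 and 0.09. Of the 4 KLF and MYC factors, Klf2, Klf4 and Klf6 rose by 1.95, 2.90 and 1.31 (adjusted p = 0.0224, 0.0305 and 0.0495). Myc differed by 0.44 (adjusted p = 0.259) with all arrays.

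The count of 24 depended on single arrays. Without the bulk array of vehicle mouse 3 it was 29 of 36, with a median of 3.19 and 7.23% of all genes higher. It was 9 without vehicle mouse 2 of 1300 mm3 or mouse 3 of 600 mm3, 12 without mouse 4 or 5 of 1300 mm3, mouse 2 of day 9 or mouse 4 of 600 mm3, and 15 without mouse 1 of day 9, with medians of 2.14 to 2.45. Against the tumours of 600 mm3 only, 15 were called (1.66% of genes higher), and against day 9 only, 10 (1.89%). In 4 scalings of the arrays 23 of the 24 were called each time. Sunitinib mice at 1300 mm3 were also set against the 4 smaller sunitinib tumours, with 26 of 36 higher in sensitive mice (8.96% of genes higher) and 29 of 36 in resistant mice (4.61%). Fosb was higher by 5.63 in sensitive and by 5.27 in resistant mice, Egr1 by 3.69 and 3.42, and Hspa1a by 4.89 and 4.74. The sensitive and resistant comparisons share those 4 tumours, none of which enters the vehicle comparison.

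Genes outside the set were counted by role. Of 44 other immediate early genes 21 were higher in vehicle bulk tissue at 1300 mm3 than in the smaller tumours and 0 lower. Of all genes 4.38% were higher and 4.7% lower. The 21 included Cdkn1a, at 1.99, Egr4, at 3.23, and Ppp1r15a, at 3.33. Of 25 other heat shock genes 5 rose, among them Ubb by 0.83, Stip1 by 0.61 and Dnajb4 by 1.59. Of 18 upstream kinases and transcription factors 2 rose, Mapk8 by 1.19 and Elk4 by 0.91.

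Cell type markers also differed between vehicle bulk tissue at 1300 mm3, which is tissue left after EC removal, and the smaller vehicle tumours. In this comparison 8 of 20 endothelial markers fell, with a median of -2.53, and 3 of 9 neutrophil markers rose, with a median of 1.94. The mean endothelial level was -2.57 to 1.06 on the vehicle bulk arrays at 1300 mm3, against 0.42 to 0.95 on the smaller vehicle arrays. The mean neutrophil level was 0.37 to 4.61, against -0.58 to 1.03. The mean macrophage level was 1.75 to 2.59, against 3.07 to 3.31, without overlap, and 1 of 10 macrophage markers fell. The mean of 3 erythroid markers was -0.73 to 2.43, against -1.84 to -0.76, also without overlap, and none of those tested was called. Their part in the result was not tested. The EC arrays hold both measures high, with an endothelial mean of 2.21 to 3.74 beside a median of 4.83 to 5.70 for the 36 genes. The array of vehicle mouse 3 lies near the smaller tumours on both measures.

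**Figure D3:**
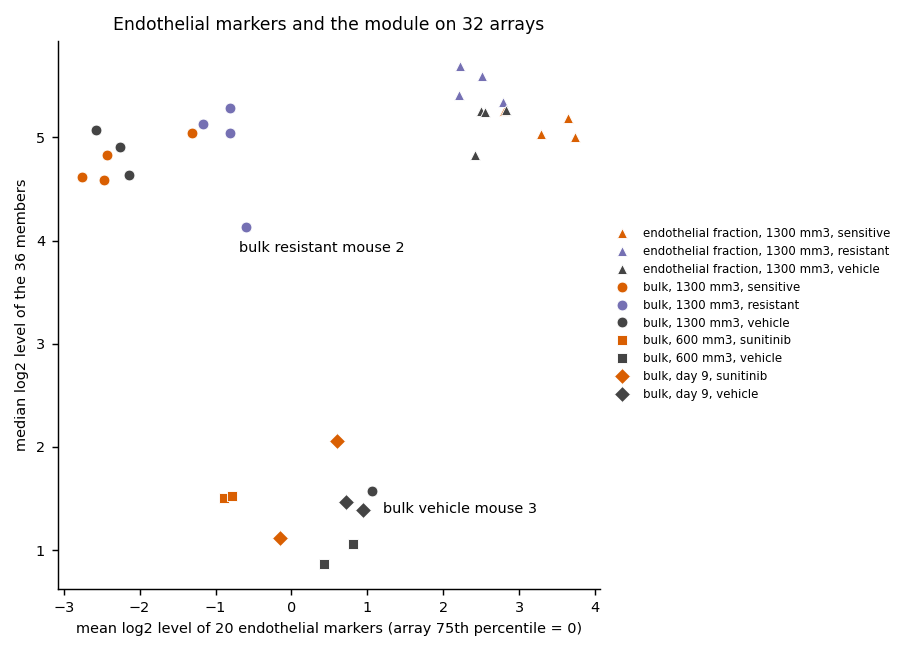
Median level of the 36 genes (y axis) against the mean level of 20 endothelial markers (x axis), both in log2 units relative to the 75th percentile of the array, with 1 point for each of 32 arrays. EC arrays lie at 2.21 to 3.74 on the x axis and above 4.8 on the y axis, the 8 smaller tumours at -0.89 to 0.95 and below 2.1, and the bulk array of vehicle mouse 3 falls beside the smaller tumours at 1.06 and 1.57.

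EC and bulk tissue of the same tumour were compared within each of the 12 mice to ask which of the genes differ between the endothelial fraction and the rest. Of 36 genes 15 were higher in EC and 2 lower, where 22.6% of 18155 genes were higher and 29.3% lower. The median difference was 0.55, against -0.06 over all genes. Higher were 6 of 11 feedback regulators, 3 of 6 EGR and NR4A factors, 3 of 7 heat shock proteins, 2 of 4 KLF and MYC factors and 1 of 8 AP-1 and ATF factors. Lower were Fosl1 and Myc.

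The KLF and MYC factors divided. Klf2, a flow-induced endothelial factor, had levels of 5.36, 5.74 and 6.44 (lowest, median and highest of 12) in EC, against 2.40, 4.99 and 5.69 in bulk tissue, a difference of 0.96 (SE 0.22, adjusted p = 0.00345). Klf6 had 6.0, 6.65 and 7.27 in EC, against 4.32, 6.12 and 6.90 in bulk tissue, a difference of 0.64 (SE 0.18, adjusted p = 0.0114). Myc, the growth factor-induced regulator of biosynthesis, had 1.64, 2.31 and 3.21 in EC, against 2.49, 3.36 and 3.73 in bulk tissue, a difference of -0.85 (SE 0.16, adjusted p = 0.000941). Klf2 was higher in EC in 12 of 12 mice and Klf6 in 8, while Myc was lower in 11, and the ranges overlapped for all 3.

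The smallest p-values belonged to other roles. Socs3 had 5.61, 6.47 and 7.23 in EC, against 3.87, 5.25 and 5.53 in bulk tissue, a difference of 1.39 (SE 0.19, adjusted p = 0.000127), and every EC array lay above every bulk array. Egr2, an EGR factor best known from myelination and T cells, differed by 1.30 (SE 0.17, adjusted p = 0.000105) and was higher in 12 of 12 mice. Zfp36 differed by 2.07 (SE 0.33, adjusted p = 0.00034), in 12 of 12 mice. Egr2 and Zfp36 overlapped between the fractions over all mice. Hspb1, the small heat shock protein abundant in endothelium and muscle, differed by 1.13 (SE 0.17, adjusted p = 0.000233), in 11 of 12 mice. In resistant mice, whose fractions share a slide, Hspb1 differed by 0.30 (adjusted p = 0.363), against 1.64 in sensitive and 1.44 in vehicle mice. Btg2 differed by 0.77 (SE 0.19, adjusted p = 0.00519), Nfkbia by 0.72 (SE 0.20, adjusted p = 0.0109) and Maff by 0.57 (SE 0.17, adjusted p = 0.0152). Hspa8 differed by 0.50 (SE 0.08, adjusted p = 0.00044) and Dnaja1, an HSP40 co-chaperone, by 0.36 (SE 0.11, adjusted p = 0.0139), but other probes of Hspa8 differed by -0.05 and 0.02 and another of Dnaja1 by 0.02. Also called were Fosl1, at -0.91, and Egr1, Nr4a3, Dusp1 and Gadd45b, at 0.65, 1.11, 0.84 and 0.66. Their adjusted p-values were 0.0438, 0.0196, 0.0174, 0.0474 and 0.0328. Of 23 other settings Fosl1 lost its call in 16, Dusp1 in 17 and Gadd45b in 9.

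**Figure D4:**
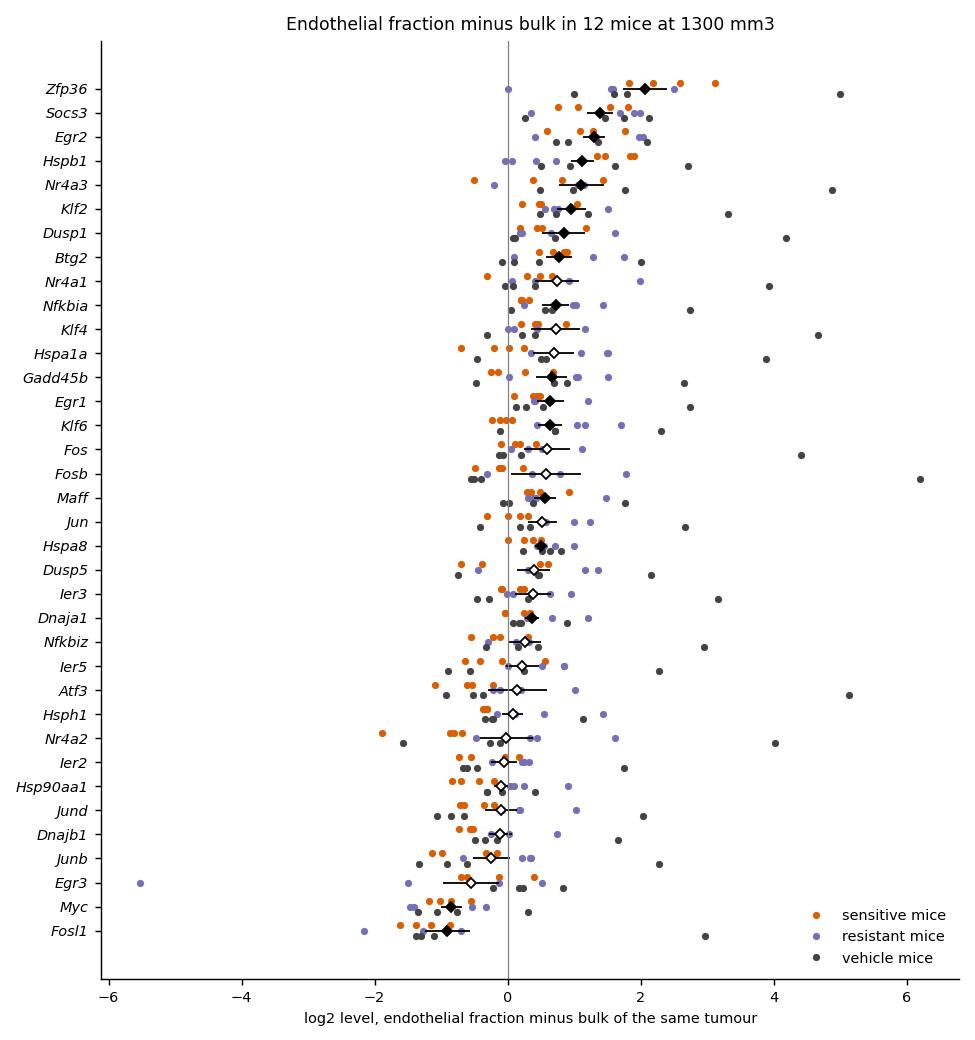
Difference in level between the EC fraction and bulk tissue of the same mouse (log2, x axis) for the genes down the y axis, with 1 dot per mouse coloured by treatment and a diamond with SE bars for the estimate over 12 mice, filled where the adjusted p is under 0.05. Vehicle mouse 3 supplies most of the dots far to the right, with a median difference of 2.67 over the 36 genes, against -0.15 to 1.14 in the other 11 mice.

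The difference was widest in vehicle mouse 3. In that mouse all 36 of 36 genes were higher in EC, with a median of 2.67, in resistant mouse 2 33 of 36, with a median of 1.14, and in the other 10 mice the median lay between -0.15 and 0.53. Without vehicle mouse 3 the median was 0.30 and 17 were higher and 5 lower (21.7% and 29.0% of genes). Among the 5 were Junb at -0.51, Jund at -0.34 and Dnajb1, the co-chaperone of HSP70, at -0.27. The EC and bulk arrays of sensitive and vehicle mice lie on different slides, whereas those of resistant mice share 1. In resistant mice alone Socs3 (1.49), Egr2 (1.44), Klf6 (1.09) and Hspa1a (1.12) were higher and Fosl1 (-1.26) lower, of 35 genes tested, where 8.81% of genes were higher and 6.2% lower. In sensitive mice alone 9 were higher and 8 lower, with a median of 0.05 (22.5% and 26.5% of genes). Klf6 had the opposite sign there, at -0.08 (adjusted p = 0.686). In vehicle mice alone 5 were higher and 0 lower (18.5% and 16.8% of genes), and without mouse 3 among them 6 were higher and 5 lower (15.7% and 17.6%).

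Other immediate early genes leaned the same way as the set, where 22.6% of all genes were higher in EC and 29.3% lower. Of 44 such genes 25 were higher in EC and 4 lower, among the higher ones Cebpd by 1.46 and Il6 by 2.73. Other heat shock genes leaned the other way, with 2 of 25 higher, Hspa2 (0.91) among them, and 11 lower, among them Stip1 (-0.76) and Fkbp4 (-0.99), both co-chaperones of HSP90. Of 18 upstream genes 5 were higher and 7 lower, among them Mrtfb (0.73), a cofactor of serum response factor, and the MAP kinase kinases Map2k2 (-0.66) and Map2k1 (-0.40). Macrophage markers, of which 9 of 10 rose in EC, had a mean level of 2.93 to 5.28 in EC. That mean was 0.46 to 2.52 on the 11 bulk arrays other than vehicle mouse 3. The bulk array of vehicle mouse 3 had a higher macrophage mean, at 2.59, but a median of only 1.57 for the set. In the 8 smaller tumours the macrophage mean was 1.39 to 3.33, beside medians of 0.87 to 2.06 for the set. Macrophage markers thus moved with the set between EC and those 11 bulk arrays, but not on vehicle mouse 3 or the smaller tumours. The part of macrophage markers in the result was not tested.

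Sunitinib in sensitive mice left no called change in the set. In EC of sensitive against vehicle mice 0 of 36 genes were called by limma, as were 0 of 17928 genes, and 3 of the 36 and 970 of all genes had an unadjusted p under 0.05. The median difference was -0.20. Hspb1 stood at 5.65, 5.61, 5.996 and 5.64 in sensitive EC, against 4.79, 5.43, 5.06 and 5.38 in vehicle EC, a difference of 0.56 (SE 0.23, adjusted p = 0.87), and the groups did not overlap. Btg2 differed by -0.59 (SE 0.23, adjusted p = 0.837) and Junb by -0.49 (SE 0.19, adjusted p = 0.837). These groups did not overlap for Btg2 and Junb either. Btg2 ranged from 3.11 to 3.25 in sensitive EC, against 3.50 to 4.19 in vehicle EC, and Junb from 2.90 to 3.30, against 3.37 to 3.95. The share of all genes without overlap between these groups was not counted. In bulk tissue of sensitive against vehicle mice 0 of 36 and 0 of 16872 genes were called, and 1 of the 36 and 1083 of all genes had an unadjusted p under 0.05. The 3 genes of smallest p were Hspa8, at 0.45 (SE 0.17, adjusted p = 0.7), Jun, at 0.93 (SE 0.47, adjusted p = 0.849), and Klf6, at 0.80 (SE 0.45, adjusted p = 0.889). The median difference in bulk was 0.41, and it was -0.26 without vehicle mouse 3, so its sign rested on that array.

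In resistant EC part of the set differed from both other EC groups, by counts that depended on the scaling of the arrays. In either direction 10 of 36 genes were called against vehicle and 14 of 36 against sensitive EC. Of all 17928 genes 8297 and 8301 were, so the set was called less often than genes in general. Values by array are those of mice 1 to 4 for resistant and 2 to 5 for sensitive and vehicle groups. Against vehicle EC 9 of 36 genes were higher and 1 lower, where 19.2% of 17928 genes were higher and 27.1% lower. They included 4 of 7 heat shock proteins, 2 of 8 AP-1 factors and 1 of 11 feedback regulators. Ier2 stood at 3.02, 3.14, 3.61 and 3.15 in resistant EC, against 1.94, 2.46, 2.44 and 2.52 in vehicle EC, a rise of 0.89 (SE 0.18, adjusted p = 0.00158). Hsph1, an HSP110 nucleotide exchange factor, stood at 4.85, 4.06, 5.05 and 4.92, against 3.24, 3.77, 4.15 and 2.97, a rise of 1.19 (SE 0.28, adjusted p = 0.0043). Dnajb1 stood at 6.85, 6.34, 6.87 and 6.05, against 5.35, 5.96, 5.59 and 5.02, a rise of 1.05 (SE 0.25, adjusted p = 0.00523). Resistant EC arrays lay above all vehicle ones for Ier2 and Dnajb1, while for Hsph1 the lowest of them, mouse 2, was just under the highest vehicle array. Hsp90aa1 rose by 0.81 (SE 0.18, adjusted p = 0.00268), Dnaja1 by 0.88 (SE 0.19, adjusted p = 0.00286), Jun by 0.87 (SE 0.18, adjusted p = 0.0018) and Jund by 0.92 (SE 0.21, adjusted p = 0.0034). Another Dnaja1 probe differed by only 0.24. Klf2 rose by 0.55 (SE 0.14, adjusted p = 0.00674) and Egr2 by 0.87 (SE 0.28, adjusted p = 0.0239). Of 17 other settings Klf2 lost its call in 3 and Egr2 in 7. Egr3, a dim probe, fell: no resistant EC array had it well above background, so it was at least 1.73-fold lower (adjusted p = 0.00128), but its sign was positive with normexp and in the authors' own values, at 0.24 and 0.11.

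Against sensitive EC, with the same resistant arrays, 13 of 36 genes were higher in resistant EC and 1 lower, where 17.6% of genes were higher and 28.7% lower. Of 7 heat shock proteins 5 rose. Hspa1a stood at 5.19, 5.71, 6.49 and 6.19 in resistant EC, against 4.88, 4.84, 4.89 and 4.41 in sensitive EC, a rise of 1.14 (SE 0.31, adjusted p = 0.0101). Hsp90aa1 stood at 6.82, 6.79, 6.95 and 6.79, against 5.58, 5.72, 5.87 and 6.10, a rise of 1.02 (SE 0.18, adjusted p = 0.000542). For both genes all resistant arrays lay above all sensitive ones. Hsph1 rose by 1.47 (SE 0.28, adjusted p = 0.00104), Dnajb1 by 1.39 (SE 0.25, adjusted p = 0.00083) and Dnaja1 by 1.00 (SE 0.19, adjusted p = 0.00118). Another Dnaja1 probe differed by only 0.35. Hspa8 differed by -0.26, but its other probes by 1.00 and 0.53. Of the immediate early genes Ier2 rose by 1.23 (SE 0.18, adjusted p = 0.000129), Btg2 by 1.16 (SE 0.23, adjusted p = 0.00164), Jund by 1.12 (SE 0.21, adjusted p = 0.00089) and Klf2 by 0.68 (SE 0.14, adjusted p = 0.00182). Ier5 rose by 0.80 (SE 0.24, adjusted p = 0.0162), though its other probe differed by -0.04. Jun, Klf6 and Nr4a3 were also higher, at 0.59, 0.57 and 0.90 (adjusted p = 0.0168, 0.0306 and 0.042). Of 17 other settings Jun lost its call in 2, Klf6 in 9 and Nr4a3 in 5. Egr3 was at least 1.55-fold lower (adjusted p = 0.00242), with the sign positive with normexp (0.19) and in the authors' values (0.09).

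The counts in resistant EC depended on the scaling of the arrays. Of all calls between resistant and vehicle EC 41.4% were higher, against 72.9% with normexp, 49.0% with quantile scaling and 51.6% in the authors' values. Between resistant and sensitive EC the shares were 38.0%, 67.3%, 44.9% and 47.5%. Normexp moved the median of all genes to 0.23 between resistant and vehicle EC and to 0.24 between resistant and sensitive EC, against 0.03 and 0.04 with the 75th percentile. Of the 36 genes 7 were higher and 1 lower against vehicle with normexp (29.3% and 10.9% of genes), but 2 higher and 7 lower with quantile scaling (17.2% and 17.9%) and likewise in the authors' values (17.6% and 16.5%). Ier2 alone was called in all 4, at 0.89, 0.75, 0.55 and 0.54 for the 75th percentile, normexp, quantile scaling and the authors' values. With quantile scaling Fosl1, Junb, Nr4a1, Ier3, Nfkbia, Nfkbiz and Hspa8 were called lower, none of which was called with the 75th percentile. On the 75th percentile scale the Hspa8 probe used differed by -0.07 from vehicle, but its other probes by 0.75 and 0.52. Against sensitive EC, Ier2, Hsph1, Dnajb1 and Nr4a3 were called higher in all 4 scalings, and the counts were 6 higher and 1 lower with quantile scaling (15.5% and 19.0% of genes) and in the authors' values (15.8% and 17.5%).

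**Figure D5:**
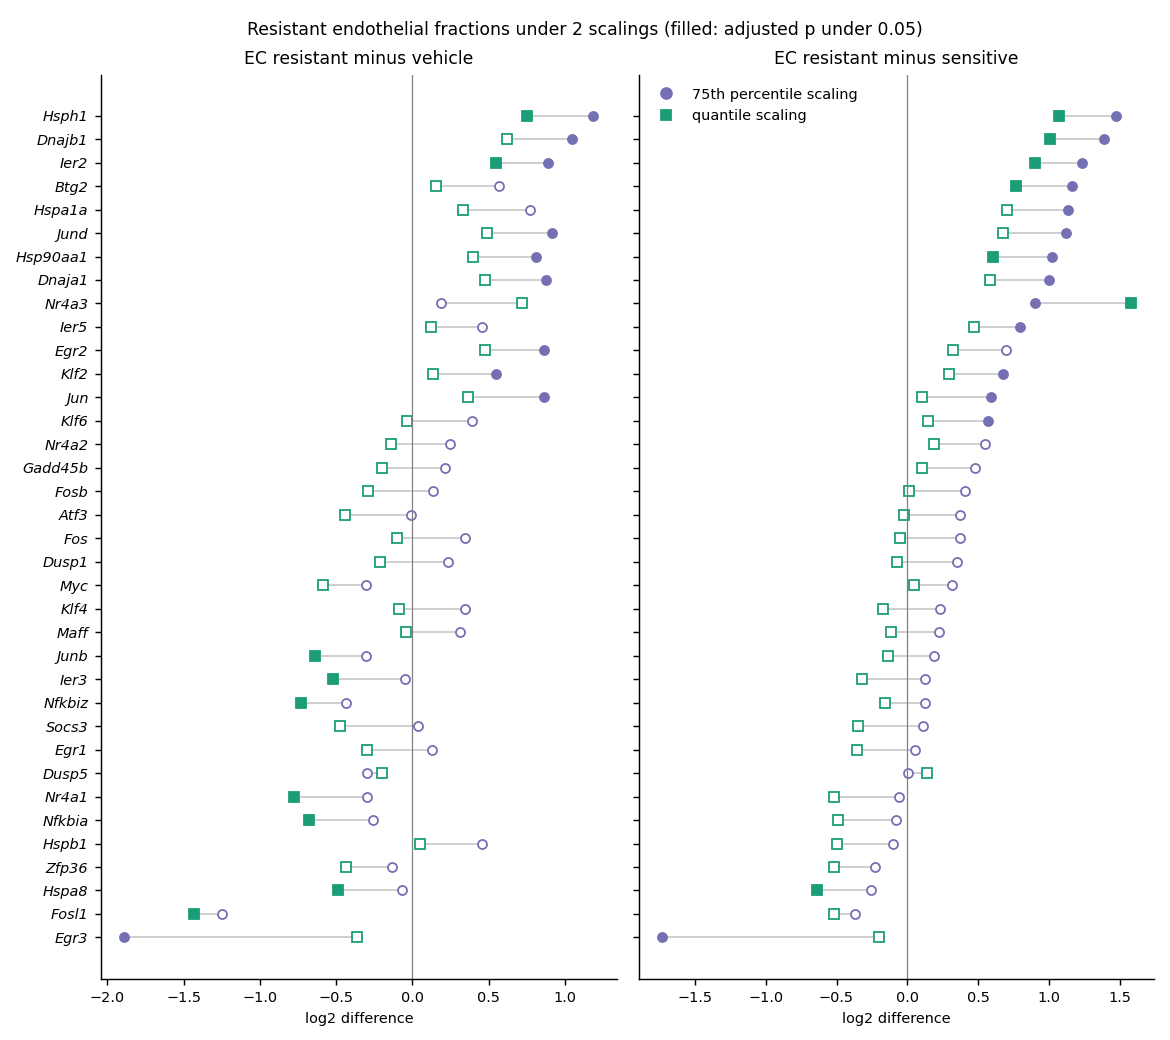
Difference of resistant EC from vehicle EC (left) and from sensitive EC (right) on the log2 scale (x axis) for the 36 genes (rows), with circles for scaling to the 75th percentile and squares for quantile scaling, joined by a line and filled where the adjusted p is under 0.05. Most squares lie left of their circles, and 2 genes are called higher and 7 lower against vehicle with quantile scaling, where the 75th percentile gives 9 and 1.

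All resistant arrays share a slide that holds neither other EC group, so resistance and slide cannot be told apart. Other heat shock genes were also higher, with 16 of 25 higher in each comparison, among them Hspe1, the mitochondrial co-chaperonin, by 1.08 against vehicle and 1.02 against sensitive. Of all genes 19.2% were higher against vehicle and 17.6% against sensitive. With quantile scaling 4 and 5 of the 25 were higher, near the 17.2% and 15.5% of all genes. Of 44 other immediate early genes 11 were higher and 4 lower against vehicle, led by Plk3 (1.17), Rhob (1.02) and Ppp1r15a (1.26). Against sensitive 7 were higher and 1 lower. Of all genes 27.1% were lower against vehicle and 28.7% against sensitive. The counts of higher genes among these 44 were near the shares of all genes that were higher. Of the upstream genes Mapk8, which encodes JNK1, fell by 0.71 against vehicle and 0.78 against sensitive, and Mapk14, which encodes p38 alpha, rose by 0.52 and 0.51. In resistant EC 16 of 20 endothelial and 10 of 10 mural markers were lower than in sensitive EC, and 2 of 20 and 6 of 10 than in vehicle EC. Of 6 adipocyte markers 5 were lower than in sensitive EC and 4 than in vehicle EC, at a mean level of -4.09 to -3.53 in resistant EC, against -1.46 to -1.0 in sensitive and -1.70 to -0.48 in vehicle EC. Their part in the result was not tested.

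In bulk tissue 1 gene of the set was called in each comparison of resistant mice. Against vehicle it was Hspb1, where 2.03% of 16872 genes were higher and 5.81% lower. Hspb1 stood at 5.88, 4.68, 5.54 and 5.19 in resistant bulk tissue, against 3.86, 2.71, 4.55 and 3.77 in vehicle bulk tissue, a rise of 1.60 (SE 0.37, adjusted p = 0.0237). All resistant arrays lay above all vehicle ones. Without resistant mouse 2 the heat shock proteins Hspb1 (1.81), Hsph1 (1.32), Dnaja1 (0.86), Dnajb1 (1.39) and Hsp90aa1 (0.62) were called higher and Egr3 lower, where 10.9% of genes were higher and 21.6% lower. Without vehicle mouse 3 Hspb1 stayed higher, at 1.26, and Junb was lower, at -1.37 (2.03% and 4.93% of genes). Against sensitive mice it was Hspa8, where 3.34% of genes were higher and 8.86% lower. Hspa8 stood at 7.38, 7.48, 7.65 and 7.30 in resistant bulk tissue, against 7.86, 8.10, 8.40 and 8.06 in sensitive bulk tissue, a difference of -0.65 (SE 0.17, adjusted p = 0.0329). All resistant arrays lay below all sensitive ones. That call held in none of the other 3 scalings, where Hspa8 differed by -0.61 with normexp, -0.31 with quantile scaling and -0.29 in the authors' values (adjusted p = 0.0621, 0.122 and 0.171). With the mean of its probes the difference was -0.18 (adjusted p = 0.545). Hspb1 came close, at 1.24 (SE 0.37, adjusted p = 0.0508), and in those 3 scalings it was the gene called, higher by 1.36, 1.28 and 1.38 (adjusted p = 0.0366, 0.0307 and 0.0188). Without resistant mouse 2 the count against sensitive mice was 3 higher and 2 lower (12.7% and 24.7% of genes), with Dnaja1 (0.77), Hspb1 (1.45) and Hsph1 (1.19) the higher ones. The call of Hspb1 against vehicle was lost without resistant mouse 1, 3 or 4 or vehicle mouse 2 or 5, with the 2 groups fitted alone and with mouse number as a block, and that of Hspa8 without resistant mouse 1 or 4 or sensitive mouse 3, 4 or 5, as well as with the 2 groups fitted alone (adjusted p = 0.0606) and with mouse number as a block (adjusted p = 0.162).

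Whether a response differed between EC and bulk tissue was tested on the within-mouse differences. For the sensitive response 0 of 36 genes were called, as were 0 of 18155 genes, with 1 of the 36 at an unadjusted p under 0.05. For the resistant response 0 of 36 were called, where 0.011% of genes were higher and 0.264% lower, again with 1 of the 36 at an unadjusted p under 0.05. The median differences were -0.60 for the sensitive and -0.05 for the resistant response, but 0.02 and 0.52 without vehicle mouse 3, so their signs rested on that mouse. Of all calls in the resistant response 4% were higher, against 63.2% with normexp, 32.7% with quantile scaling and 19.7% in the authors' values. Rises in resistant EC that were not called in resistant bulk tissue are thus not shown to differ between the fractions.

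In the smaller tumours sunitinib was set against vehicle over both stages. Of 35 genes tested 0 were called, as were 0 of 17427 genes by limma, and 3 of the 35 and 1746 of all genes had an unadjusted p under 0.05. Fosb stood at -0.77 and 0.17 at day 9 and 0.67 and 0.38 at 600 mm3 with sunitinib, against -0.22 and -0.28 at day 9 and -1.31 and -1.45 at 600 mm3 with vehicle, a mean difference of 0.93 (SE 0.23, adjusted p = 0.22). At 600 mm3 both sunitinib tumours were above both vehicle tumours, and at day 9 the groups overlapped. At 600 mm3 alone Fosb (1.91) and Fosl1 (1.69) were called higher, where 0.511% of genes were. Over both stages Fosl1 differed by 0.51 (SE 0.14, adjusted p = 0.252) and Klf4, a factor of epithelial differentiation, by 0.55 (SE 0.19, adjusted p = 0.389).

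Between the 2 smaller stages, 600 mm3 against day 9, 1 gene rose and 1 fell, where 1.59% of genes rose and 2.74% fell. Of all calls 36.7% were higher, against 24.1% with normexp. Myc stood at 3.34 and 3.33 (sunitinib) and 3.27 and 3.57 (vehicle) at 600 mm3, against 2.90 and 2.76 (sunitinib) and 2.50 and 2.52 (vehicle) at day 9, a rise of 0.71 (SE 0.14, adjusted p = 0.0455). Hspb1 stood at 2.90 and 2.71 (sunitinib) and 1.58 and 2.56 (vehicle) at 600 mm3, against 4.70 and 4.03 (sunitinib) and 4.35 and 4.76 (vehicle) at day 9, a difference of -2.02 (SE 0.27, adjusted p = 0.0151). Neither gene overlapped between the stages, in sunitinib or in vehicle mice. In vehicle mice alone Hspb1 was the gene called, at -2.49, where 0.379% of genes were higher and 1.24% lower. In sunitinib mice alone it was Fosl1, at 1.68, where 0.373% were higher and 0.471% lower. Of 44 other immediate early genes 5 fell, among them Cdkn1a (-1.67) and Gadd45g (-0.90), and so did Cryab (-1.47), a small heat shock protein related to Hspb1. These groups have 2 arrays each, and the count of called genes of the set was 6 without sunitinib mouse 1 of day 9 and 0 without either sunitinib mouse of 600 mm3.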

How the data were processed

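RNA of 32 samples was hybridised to 1-colour Agilent arrays of mouse genes. The authors scanned them to intensity values, background subtracted within each array by Agilent Feature Extraction 10.7.3.1 per the file headers, though the submitters' processing notes name version 9.1. The authors also deposited a table of normalised, linear intensity values, whose normalisation is not given in the sources used here and whose centring is unknown. Each of its columns matched the scanner values of its own array best.

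Control and flagged spots were left out and spots of a probe averaged, which gave 55681 probes. RefSeq accessions named 26582 of them through a gene table of GRCm38.p6, for 20145 genes, each represented by its probe of highest mean over 32 arrays. The log2 processed signals of an array were centred on their 75th percentile. A gene entered a test where its probe was well above background on at least 4 arrays at 1300 mm3, or 2 where smaller tumours entered. The 12 comparisons were fitted by lmFit and eBayes of limma 3.58.1, under R 4.3.3 (package data.table at version 1.17.8). P-values were adjusted by Benjamini-Hochberg over all genes tested, at 0.05. SE is limma's. The 3 groups of a fraction at 1300 mm3 shared 1 fit, as did all bulk groups in the comparison of tumour sizes. EC and bulk arrays were joined by mouse number within a treatment: the deviations of the 2 arrays from their group means correlated at 0.0652 to 0.482, and 10 of 12 EC arrays correlated best with their own bulk array, the exceptions being resistant mouse 4 and vehicle mouse 3. Equal numbers in different treatments are different animals. The number of arrays limits the precision. The test was tried on simulated data with known changes.

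Alternatives were normexp with an offset of 50 on the median signal (the mean signal column was not used here, since the files carry the median), quantile scaling, the authors' deposited intensity values, other filters and probe choices, a replicate block, and leaving out each array. The 37 genes, their roles and the other lists were chosen with earlier results of these data known. Values are given for every called gene of the set up to 12 a comparison, those of smallest p first, otherwise for the 3 of smallest p, and in full by array where the role had its smallest p. Hspb1 and Hspa8 in bulk tissue, the genes of resistant EC given by array and Fosb in the smaller tumours were chosen for display after their values were seen. From the other lists the 3 called genes of smallest p are named. Cd68, Ly6g, Trac and Hbb-b1 had no named probe. Promoter sequences are RefSeq's.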

Additional observations from a re-analysis of the deposited data

Results flagged for a closer look

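In groups of 4 arrays, the highest or lowest array of a gene was marked where its gap to the nearest other made up more of the range than the critical value of the test of Dixon for that size of group, which chance alone does in about 1 in 20 groups. Of 216 groups of the 36 genes 40 were marked.

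The bulk array of vehicle mouse 3 was marked as low for 19 genes. The AP-1 and ATF factors were Fos (1.74), Fosb (-0.089), Junb (1.16), Jund (4.996), Atf3 (1.45) and Maff (1.23). The EGR, NR4A and KLF factors were Egr1 (2.96), Egr2 (0.60), Nr4a1 (3.31), Nr4a2 (-0.48) and Klf4 (0.75). The feedback regulators were Ier5 (0.19), Dusp1 (0.70), Zfp36 (-2.45), Btg2 (1.70), Socs3 (3.87), Nfkbia (4.85) and Nfkbiz (0.26). Hspa1a (1.22) was the 1 heat shock gene among them. For each of these genes the array was the lowest of its group.

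The bulk array of resistant mouse 2 was marked as low for Atf3 (4.75), Egr1 (4.30), Klf4 (4.24), Zfp36 (0.15), Socs3 (4.46), Hsp90aa1 (5.88) and Dnaja1 (5.48), and as high for Egr3 (-0.27), which is dim on the other arrays of that group.

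The other 13 marks were spread over genes and mice. In bulk tissue of sensitive mice Atf3 was high in mouse 5 (7.04), Egr1 and Hsp90aa1 in mouse 3 (5.92 and 6.55) and Ier3 in mouse 4 (6.05), and in vehicle bulk tissue Hsp90aa1 was high in mouse 4 (6.56). In sensitive EC Nfkbiz was high in mouse 3 (2.92) and Hspb1 in mouse 4 (5.996), and Hspa1a was low in mouse 5 (4.41). In vehicle EC Jun was high in mouse 3 (7.59) and Zfp36 in mouse 5 (3.499), and Klf6 and Ier2 were low in mouse 2 (6.23 and 1.94) and Dnaja1 in mouse 5 (5.61).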

How the results depend on the processing

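Slide coincides with tumour size and with resistance, and tumour size coincides with whether an EC fraction was measured. Groups hold 2 or 4 arrays, and dim genes such as Egr3 and Nr4a3 have only a bound where they are not above background. Counts of called genes of the 36 that moved by over 1.5 times were these. EC against bulk tissue gave 17, but 5 in resistant mice alone, 5 in vehicle mice alone, 11 in vehicle mice without mouse 3, and 26 without vehicle mouse 3 and resistant mouse 2, a setting chosen after seeing the data. Resistant against sensitive EC gave 14, but 7 with quantile scaling and 7 with the authors' values. Resistant against vehicle bulk tissue gave 1, but 0 with the 2 groups alone, 9 without both of those arrays and 0 to 6 with 1 array left out. Resistant against sensitive bulk tissue gave 1, but 2 where every array had to be above background, 0 with the mean of a gene's probes, 2 with all probes, 12 without both of those arrays and 0 to 5 with 1 array left out. Sunitinib against vehicle in smaller tumours gave 0, but 2 at 600 mm3 alone. Tumours of 600 mm3 against day 9 gave 2, but 1 without a filter, 1 with all probes, 1 in vehicle mice, 1 in sunitinib mice and 0 to 6 with 1 array left out. The comparison of vehicle tumour sizes gave 24, but 15 against 600 mm3, 10 against day 9 and 9 to 29 with 1 array left out. Leaving out 1 array gave 14 to 22 for EC against bulk tissue, 9 to 13 for resistant against vehicle EC and 11 to 16 for resistant against sensitive EC.

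Signs turned for Klf6 in EC against bulk tissue of sensitive mice (-0.076), and for Egr3 in resistant EC against vehicle (0.24 with normexp, 0.11 in the authors' values) and against sensitive (0.19 and 0.093). The cause was not tested. Of the other planned values for single genes, 6807 kept their direction and side of the threshold, 453 that were not called changed sign, 242 lost and 110 gained a call.

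Equal mouse numbers in different treatments are different animals, and with that number as a block 16 genes were called in resistant against vehicle EC and 0 in each comparison of resistant bulk tissue. Without the pairing by mouse, EC against bulk tissue gave 15.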
